A study of Mus musculus with 60 samples.

Results

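The cortex of mice of 3 inbred strains, 129S1/SvImJ, LP/J and BTBRT T(+) tf/J (hereafter BTBR), was compared with the cortex of 27 other inbred strains at baseline, when the animals drank plain water. The 3 strains were chosen by name, because they share a known deletion in Disc1, and not by any value measured here. They gave 3 of the 30 water arrays, and 3 of the 60 arrays of the whole series. The question was which cortical genes set these strains apart from the others, and whether the same genes did so on a second set of arrays. That second set came from the same strains after fluoxetine, a selective serotonin reuptake inhibitor.

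Disc1 encodes a scaffold protein that binds partners at the centrosome, in mitochondria and at synapses, and takes part in the migration and maturation of cortical neurons. The deletion lies in an exon and shifts the reading frame. It is best known in 129 mice, whose embryonic stem cells served for many knockout lines. The Swiss-derived strains FVB/NJ, SJL/J and SWR/J have also been reported to carry it, so the 27 strains are not all free of it. The 3 strains differ in other known ways. BTBR mice lack a corpus callosum and are used as a model of autism-like behaviour, and their tufted coat is attributed to a variant in Itpr3. LP/J carries the piebald allele of Ednrb, an endothelin receptor needed by pigment cell precursors, which I/LnJ carries too. The strains also share ancestry, so they have many other alleles in common, and the Disc1 deletion and the rest of the shared genome cannot be told apart in these groups.

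All animals were male, 10 to 11 weeks old, bred at The Jackson Laboratory, and no array came from a single animal: each carried cortical RNA pooled from 3 mice. The water group received fluoxetine at 0 mg/kg and the treated group 18 mg/kg per day by mouth for 21 days, and each strain gave 1 array per treatment. The strains set against 129S1/SvImJ, LP/J and BTBR were SWR/J, SM/J, SJL/J, RIIIS/J, PL/J, P/J, NZW/LacJ, NZB/BlNJ, NOR/LtJ, NOD/LtJ, MRL/MpJ, MA/MyJ, LG/J, I/LnJ, FVB/NJ, DBA/2J, CE/J, CBA/J, C58/J, C57BR/cdJ, C57BLKS/J, C57BL/6J, C3H/HeJ, BUB/BnJ, BALB/cJ, AKR/J and A/J. The strain was therefore the replicate, and a p-value here measures the spread between strains. Since the 3 strains are related, they are not independent draws from all strains.

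Levels are log2 intensities of Affymetrix arrays as deposited, and a difference of 1 on this scale is a doubling. A gene was called when its adjusted p was under 0.05 in limma with Benjamini-Hochberg adjustment over the 11887 genes tested. The median intensity of an array was 40.74 to 42.55 in the 3 strains and 39.17 to 43.14 in the 27 strains. The 3' minus 5' signal of Actb, a sign of RNA degradation, was 1.401 to 1.516 in the 3 strains and 1.172 to 1.527 in the 27. The mean correlation of a water array with the other arrays was 0.9811 to 0.9829 in the 3 strains, inside the 0.979 to 0.9841 of the 27. Slc17a7, the vesicular glutamate transporter of cortical excitatory neurons, measured 11.96 in 129S1/SvImJ, 12.06 in LP/J and 12.28 in BTBR, against a median of 12.43 (10.65 to 13.28) in the 27 strains. This gene alone does not show how cleanly the cortex was dissected. Of the choroid plexus markers, Kl, Folr1, Clic6 and Aqp1 were below the filter on low values. The intensities of that list summed to 174.3 to 790.4 in the 3 strains, against a median of 194.3 (132.6 to 35090) in the 27. Those of 8 hippocampus markers, 5 of them below the filter, summed to 6044 to 9817, against a median of 6718 (5063 to 9039). The highest hippocampus sum of the 3 strains thus lay above the 27, and what neighbouring tissue contributed was not tested. No probe set is paired with Disc1 in the annotation used here, alone or among several gene names, so its level was not analysed here.

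In the water arrays 93 of 11887 genes (0.782%) were called between the 3 strains and the 27. Of these 35 (0.294%) were higher and 58 (0.488%) lower in the 3 strains. At least a doubling or halving (1 on the log2 scale) was reached by 13 of the higher and 18 of the lower genes. Over all genes tested, 6146 were higher and 5741 lower and the median size of a difference was 0.08, against 0.66 among those called. For 32 of the called genes all 3 strains lay outside the whole range of the 27, 15 above and 17 below. Over all genes 39 (0.328%) were placed so. The count was 45 without 129S1/SvImJ, 45 without LP/J and 146 without BTBR. Such a fit has fewer strains in the group, so a call can be lost although the difference keeps its size. The count stayed between 81 and 107 when each of the 27 strains was left out in turn.

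Of the genes higher in the 3 strains, Fxyd2 had the smallest p. It encodes a small membrane protein that modulates the sodium pump and is best known from the kidney. Fxyd2 measured 9.90 in 129S1/SvImJ, 9.86 in LP/J and 8.16 in BTBR, against a median of 6.81 (6.32 to 7.61) in the 27 strains. All 3 strains lay above all 27, with BTBR the nearest to them. The mean difference was 2.45 (SE 0.250; limma adjusted p = 7.93e-07), a fold of 5.48. Under fluoxetine Fxyd2 measured 10.07, 9.11 and 8.72 in the 3 strains in the same order, against 6.32 to 7.56 in the 27. The probe set behind this value is of a kind whose probes can also match related transcripts, and the other Fxyd2 probe sets were below the filter.

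Filip1, whose product binds filamin A and controls the start of migration of cortical neurons, measured 7.33 in 129S1/SvImJ, 7.11 in LP/J and 7.46 in BTBR, against a median of 4.37 (3.89 to 6.84) in the 27 strains. The 3 strains lay close together and above all others, of which C58/J came nearest. The difference was 2.56 (SE 0.497; limma adjusted p = 0.00576), and it was 2.55 without 129S1/SvImJ (limma adjusted p = 0.0613). Psg16, a member of the pregnancy-specific glycoprotein family, measured 5.56, 5.20 and 5.75 in 129S1/SvImJ, LP/J and BTBR, against a median of 3.22 (2.84 to 5.06) in the 27 strains. Its difference was 2.05 (SE 0.363; limma adjusted p = 0.00190), and again no value of the 27 reached the 3. B330016D10Rik, a transcript with no assigned role, measured 6.34, 6.77 and 6.71 in the same strains, against a median of 4.83 (3.39 to 6.14), a difference of 1.83 (SE 0.303; limma adjusted p = 0.000855).

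Other genes were high in the 3 strains and also in a few of the 27. Cdhr1, a cadherin-related protein of photoreceptors and of mitral and tufted cells of the olfactory bulb, had the largest difference called. It measured 8.79 in 129S1/SvImJ, 7.99 in LP/J and 8.58 in BTBR, against a median of 4.23 (3.20 to 10.94) in the 27 strains. P/J held the top value, above all 3, and NZB/BlNJ followed at 7.86. The difference was 3.88 (SE 0.897; limma adjusted p = 0.0263). It kept its size in the fits that left out one of the 3 strains but passed the threshold in none of them, at 3.71 without 129S1/SvImJ (limma adjusted p = 0.221), 4.11 without LP/J (0.130) and 3.82 without BTBR (0.0867). C920006O11Rik measured 5.79, 5.39 and 5.61 in 129S1/SvImJ, LP/J and BTBR, whereas 23 of the 27 strains lay at or near the floor of the scale, 2.07. C57BL/6J, at 5.51, held the highest value of the 27, with C57BR/cdJ next at 4.06. The difference of 3.26 (SE 0.438; limma adjusted p = 5.60e-05) is set in part by that floor, below which no level is resolved. C920006O11Rik reached log2 4 in only 9 of the 60 arrays, and the filter on low values asked for 6. The arrays of the 3 strains thus helped it to be tested, and its p-value carries that selection.

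Osbpl3, a lipid transfer protein that binds sterols, measured 10.01 in 129S1/SvImJ, 10.17 in LP/J and 10.29 in BTBR, against a median of 8.47 (7.87 to 10.28) in the 27 strains, of which MA/MyJ and C57BR/cdJ were as high. The difference was 1.60 (SE 0.343; limma adjusted p = 0.0147). A second Osbpl3 probe set ran the other way, at -0.63, and with the mean of both the gene was not called (limma adjusted p = 0.101). The difference of Osbpl3 stayed between 1.53 and 1.67 when one of the 3 strains was left out, with a limma adjusted p of 0.0890 without 129S1/SvImJ, 0.129 without LP/J and 0.0683 without BTBR.

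The remaining genes of the 12 with the largest rises were uneven among the 3 strains. Ddo, the enzyme that breaks down D-aspartate, measured 9.17 in 129S1/SvImJ, 8.85 in LP/J and 7.53 in BTBR, against a median of 7.22 (6.96 to 8.25) in the 27 strains. BTBR thus lay among the 27 (difference 1.21, SE 0.203; limma adjusted p = 0.000951), and without 129S1/SvImJ the difference was 0.89 (limma adjusted p = 0.0890). Pcdh18, a protocadherin, was highest in 129S1/SvImJ, at 8.25, with 6.93 in LP/J and 7.07 in BTBR, against a median of 6.17 (5.84 to 7.15). Without 129S1/SvImJ its difference was 0.67 (limma adjusted p = 0.510), against 1.09 (0.0177) with it. Gm26760 and Sbspon, a secreted protein with a thrombospondin repeat, had their low value in LP/J, at 3.14 and 2.85, while 129S1/SvImJ and BTBR measured 4.82 to 5.51. The medians of the 27 strains were 2.14 and 2.11, near the floor. Each gene reached log2 4 in only 8 of the 60 arrays, where the filter on low values asked for 6. The water arrays of 129S1/SvImJ and BTBR were among those 8. They thus counted toward the filter, and the p-values of both genes carry that selection. Without 129S1/SvImJ neither was called, at a difference of 1.75 for Gm26760 (limma adjusted p = 0.105; 2.19 with all 3) and 1.61 for Sbspon (0.235; 1.91 with all 3). Sbspon was not called without BTBR either, at 1.52 (limma adjusted p = 0.131). H2-Bl, a class I histocompatibility gene whose probes may bind related class I transcripts, measured 5.69, 6.44 and 5.78 in 129S1/SvImJ, LP/J and BTBR, against a median of 4.75 (4.31 to 6.55) in the 27 strains. Only I/LnJ exceeded the 3. The difference was 1.18 (limma adjusted p = 0.0128), and 0.95 without LP/J (limma adjusted p = 0.269).

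**Figure D1:**
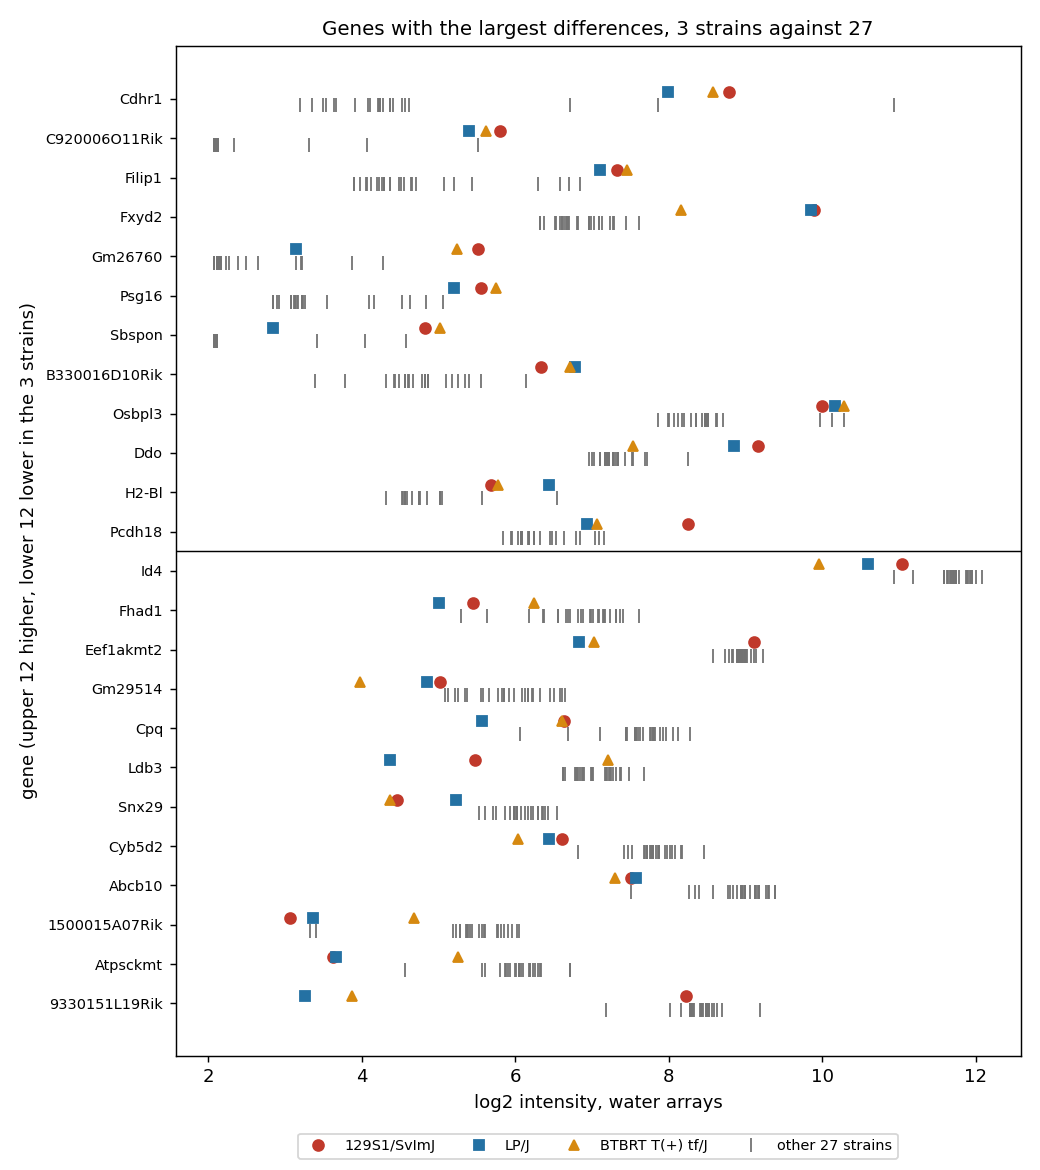
Log2 intensity on the water arrays (horizontal axis) of the 12 genes with the largest higher and the 12 with the largest lower difference among those called (rows); coloured symbols are 129S1/SvImJ, LP/J and BTBRT T(+) tf/J and grey ticks the other 27 strains. Fxyd2, Filip1 and Psg16 show 3 symbols above every tick, and Cyb5d2 and Snx29 show 3 symbols below every tick, whereas 9330151L19Rik shows 129S1/SvImJ among the ticks.

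Among the genes lower in the 3 strains, Cyb5d2 and Snx29 were low in each. Cyb5d2, a heme-binding protein of the cytochrome b5 family that is also named neuferricin, measured 6.61 in 129S1/SvImJ, 6.44 in LP/J and 6.03 in BTBR, against a median of 7.79 (6.82 to 8.46) in the 27 strains. The difference was -1.44 (SE 0.176; limma adjusted p = 1.02e-05), and C58/J had the nearest value. Snx29, a sorting nexin, measured 4.46, 5.23 and 4.37 in 129S1/SvImJ, LP/J and BTBR, against a median of 6.02 (5.52 to 6.55), a difference of -1.39 (SE 0.162; limma adjusted p = 5.38e-06). Neither gene's values in the 3 strains overlapped those of the 27.

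Abcb10 encodes a transporter of the inner mitochondrial membrane that is needed for heme synthesis in red cell precursors. It measured 7.51 in 129S1/SvImJ, 7.58 in LP/J and 7.30 in BTBR, against a median of 8.99 (7.51 to 9.39) in the 27 strains. P/J alone among the 27 was as low as the 3 strains; the next, A/J, measured 8.26. The difference was -1.45 (SE 0.234; limma adjusted p = 0.000589). A second Abcb10 probe set gave 3.73, 3.79 and 4.41 in the 3 strains in the same order, against a median of 7.21 (3.98 to 8.17), and there too P/J was the lowest of the 27.

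Id4 encodes an inhibitor of basic helix-loop-helix transcription factors that is active in neural precursors and astrocytes. It measured 11.04 in 129S1/SvImJ, 10.60 in LP/J and 9.96 in BTBR, against a median of 11.75 (10.94 to 12.09) in the 27 strains. BTBR was lowest, and 129S1/SvImJ lay just inside the range of the 27 through BUB/BnJ. The difference was -1.20 (SE 0.162; limma adjusted p = 5.60e-05), and the other 2 probe sets of Id4 gave -1.36 and -0.97.

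The largest fall belonged to 9330151L19Rik, a noncoding transcript with no assigned role, and it came from a pair of the 3 strains. It measured 3.26 in LP/J and 3.87 in BTBR but 8.22 in 129S1/SvImJ, against a median of 8.43 (7.18 to 9.20) in the 27 strains. The mean difference was -3.28 (SE 0.462; limma adjusted p = 0.000108). Eef1akmt2, a methyltransferase that acts on a translation elongation factor, had the same pattern, with 6.83 in LP/J and 7.02 in BTBR but 9.12 in 129S1/SvImJ, against a median of 8.95 (8.58 to 9.23). Its difference was -1.29 (limma adjusted p = 0.000828), and -0.88 without LP/J (limma adjusted p = 0.0894).

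Atpsckmt, a lysine methyltransferase of the c subunit of the mitochondrial ATP synthase, was lowest in the other combination. It measured 3.63 in 129S1/SvImJ and 3.66 in LP/J, with 5.25 in BTBR, against a median of 6.05 (4.56 to 6.72) in the 27 strains (difference -1.86, SE 0.267; limma adjusted p = 0.000128). Ldb3, a protein of the muscle Z-disc, likewise measured 5.48 and 4.37 in 129S1/SvImJ and LP/J while BTBR, at 7.20, lay inside the range of the 27 (6.62 to 7.67). Its difference was -1.36 (limma adjusted p = 0.00739), against -1.26 without 129S1/SvImJ (limma adjusted p = 0.121) and -0.71 without LP/J (0.396). The rest of the 12, 1500015A07Rik, Cpq, Gm29514 and Fhad1, fell by 1.27 to 1.69. Only for Gm29514 did all 3 strains lie below the 27. SWR/J and RIIIS/J, at 3.33 and 3.40, lay among the 3 strains for 1500015A07Rik, and BUB/BnJ, at 6.07, for Cpq. I/LnJ, SM/J and MRL/MpJ, at 5.29, 5.63 and 6.18, did so for Fhad1. None of the 4 genes was called without LP/J. There 1500015A07Rik differed by -1.52 (limma adjusted p = 0.263), Cpq by -0.98 (0.269), Gm29514 by -1.41 (0.0736) and Fhad1 by -0.98 (0.453), so that Gm29514 differed by more than with all 3 strains, at -1.29. Without 129S1/SvImJ, 1500015A07Rik differed by -1.37 (limma adjusted p = 0.356) and Fhad1 by -1.21 (0.295), and without BTBR Gm29514 differed by -0.97 (0.179).

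Of these 24 genes, 4 of the 12 higher and 6 of the 12 lower remained called whichever of the 3 strains was left out. The higher ones were C920006O11Rik, Fxyd2, Psg16 and B330016D10Rik. For C920006O11Rik this is no separate support, as its high arrays in the 3 strains helped it past the filter on low values. The lower ones were 9330151L19Rik, Atpsckmt, Abcb10, Cyb5d2, Snx29 and Id4.

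The 93 called genes did not set the 3 strains apart to the same degree. The value of 129S1/SvImJ lay outside the range of the 27 strains for 70 of them, that of LP/J for 70 and that of BTBR for 50. Besides the 32 genes with all 3 outside, 24 had 129S1/SvImJ and LP/J outside without BTBR, 20 of these below the range and 4 above. Another 9 had LP/J and BTBR outside without 129S1/SvImJ, and 6 had 129S1/SvImJ and BTBR outside without LP/J. A single strain lay outside for 8 genes in 129S1/SvImJ, 5 in LP/J and 3 in BTBR, and for 6 genes none did. As the genes were called on these same arrays, the counts describe how the calls are made up. By another measure, the midpoint between the means of both groups was crossed toward the 3 strains by LP/J in 90 of the 93 genes, by 129S1/SvImJ in 87 and by BTBR in 72. Among the 27, P/J crossed it for 16 genes, I/LnJ, MA/MyJ and NZB/BlNJ for 12 each, and A/J for 1. FVB/NJ and SJL/J crossed it for 4 genes each and SWR/J for 3. These counts too are bound by the selection, since the genes were called against all 27.

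**Figure D2:**
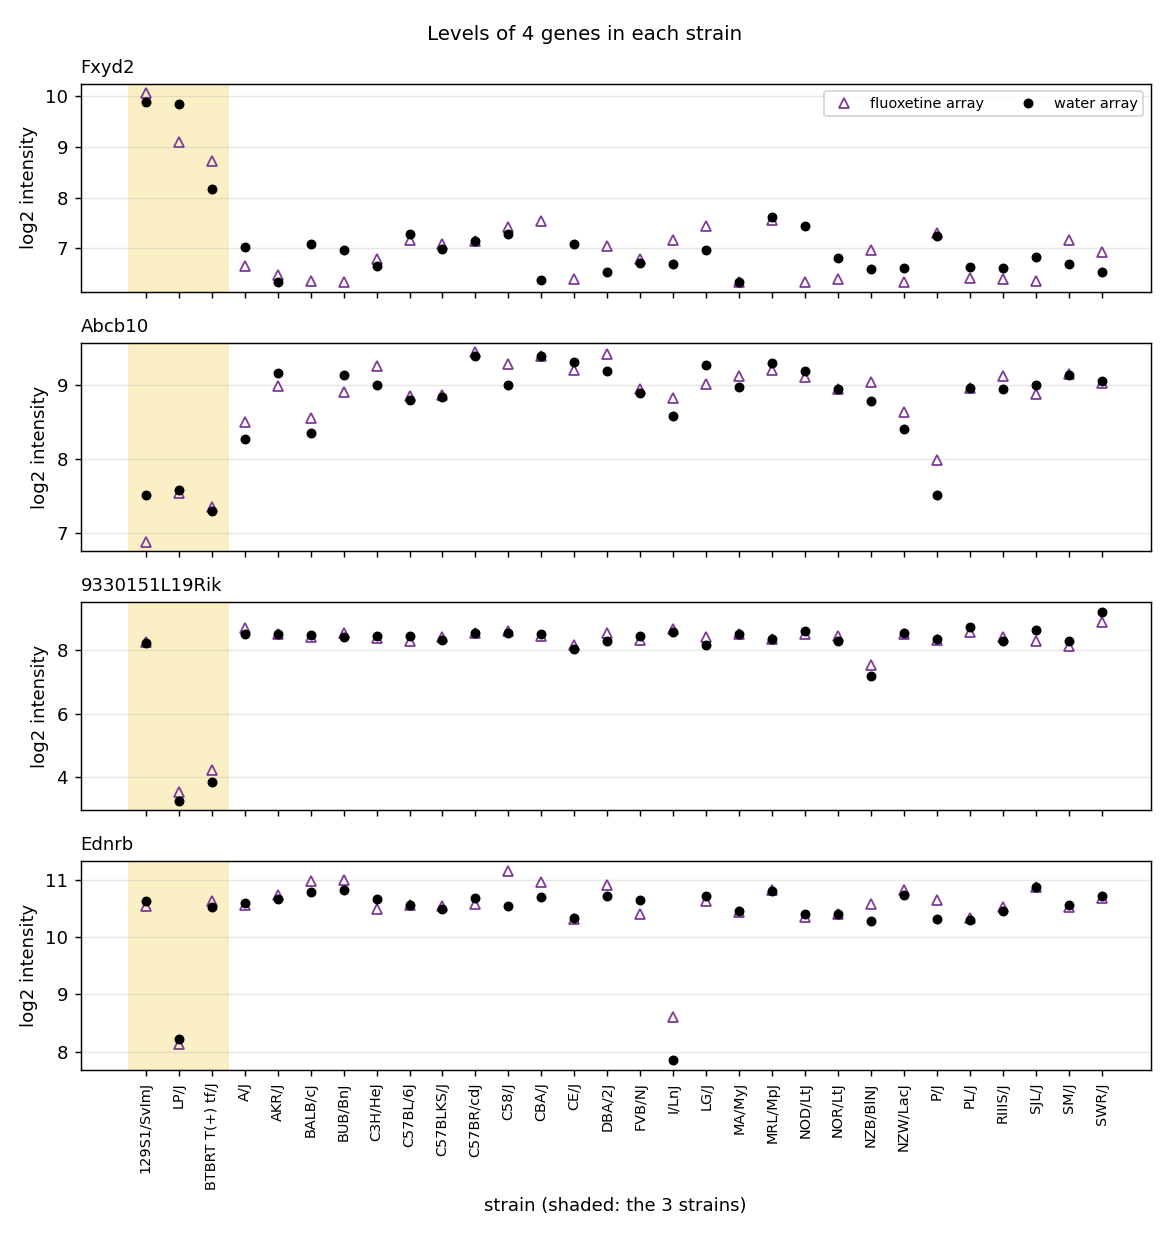
Log2 intensity (vertical axis) of Fxyd2, Abcb10, 9330151L19Rik and Ednrb in each of the 30 strains (horizontal axis, the 3 strains shaded at the left); open triangles are fluoxetine arrays and filled circles water arrays, 1 per strain. Fxyd2 stands high in the 3 shaded strains, Abcb10 is low in them and in P/J, 9330151L19Rik is low in LP/J and BTBRT T(+) tf/J, and Ednrb is low in LP/J and I/LnJ.

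The fluoxetine arrays gave a second reading from other pools of the same strains. There 73 genes (0.614%) were called, 33 higher and 40 lower in the 3 strains. Of the 93 genes called on water arrays, 49 were called again, which is 52.7% of the water list and 67.1% of the fluoxetine list. All 93 kept their sign, and 83 had an unadjusted p under 0.05 in limma, as did 873 of all 11887 genes. Of the 24 genes with the largest differences, 9 of the 12 higher and 11 of the 12 lower were called again, and those that were not were Gm26760, H2-Bl, Pcdh18 and Fhad1 (limma adjusted p = 0.211, 0.166, 0.108 and 0.0696 under fluoxetine). The repeat shows how stable a strain's level is between pools. It adds no further strain to either group.

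The difference itself was compared between treatments with limma on each strain's fluoxetine minus water value. No gene was called for it (0 of 11887, 0%), while 450 genes had an unadjusted p under 0.05, 11 of them among the 93. The smallest limma adjusted p was 0.99994.

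For 8 called genes the 3 strains lay outside the range of the 27 on both sets of arrays, which 21 genes (0.177%) did on the fluoxetine arrays and 9 on both. Besides Fxyd2, Filip1, Psg16 and Cyb5d2 they were Emp2, Zfp236, Mrps2 and Egln3, which are named here after their values were seen. Emp2, a membrane protein of the tetraspan family, measured 8.42 in 129S1/SvImJ, 7.43 in LP/J and 8.10 in BTBR on water, against a median of 9.09 (8.72 to 9.45) in the 27 strains. Its difference was -1.13 (SE 0.129; limma adjusted p = 5.11e-06) on water and -1.14 under fluoxetine. The zinc finger gene Zfp236 measured 7.71, 7.81 and 7.86 in 129S1/SvImJ, LP/J and BTBR, against a median of 8.55 (8.06 to 8.86), a difference of -0.74 (SE 0.114; limma adjusted p = 0.000309). The others were higher in the 3 strains. Egln3, a prolyl hydroxylase that marks hypoxia-inducible factor for degradation, differed by 0.77 (SE 0.142; limma adjusted p = 0.00306), and Mrps2, a protein of the mitochondrial ribosome, by 0.38 (SE 0.0606; limma adjusted p = 0.000494).

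**Figure D3:**
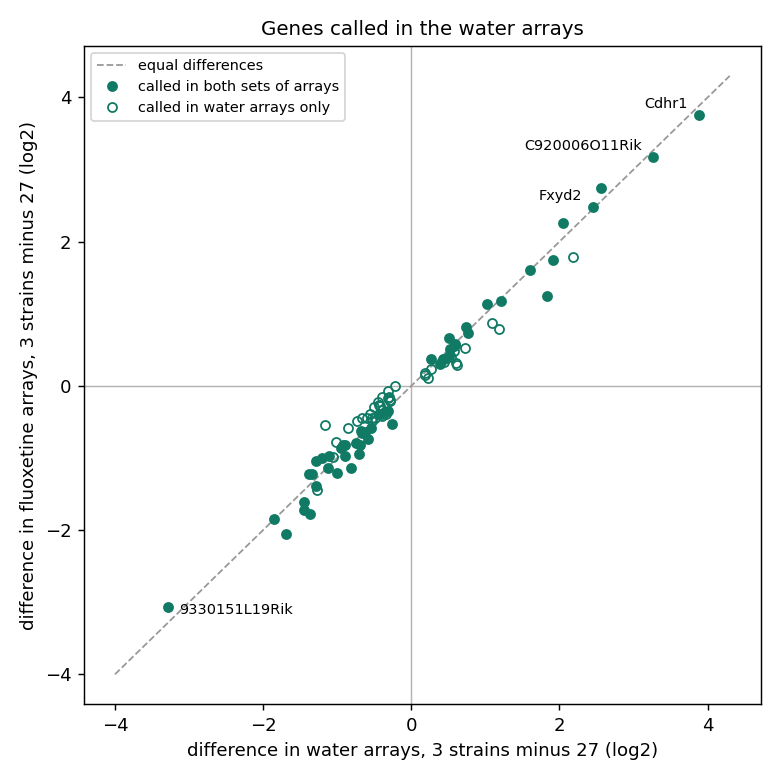
Difference between the 3 strains and the 27 on the water arrays (horizontal axis, log2) and on the fluoxetine arrays (vertical axis, log2) for the 93 genes called on water arrays, 1 point per gene; filled points are the 49 called on both sets and the dashed line marks equal differences. All 93 points have the same sign on both axes.

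Several called genes were neighbours in the gene order of RefSeq, with at most 5 other tested genes between 2 of them. There were 4 groups of 3 genes and 5 pairs, which held 22 of the 93 genes, 12 in groups and 10 in pairs. With 93 called among 11863 placed genes, some would be neighbours by their number alone. That share was not worked out, so the 22 are not read as clustering. The groups were C920006O11Rik, Slc17a5 and Filip1; Ctnnd2, Atpsckmt and Cpq; Npas1, Dact3 and Psg16; and Itgam, 9130023H24Rik and Tial1. The signs were mixed in 2 of the 4 groups, and all members were lower in the groups of Ctnnd2 and of Itgam. The Itgam group was not low in the 3 strains alone. Among the 27, I/LnJ and P/J measured 5.20 and 5.52 for Itgam, and CBA/J 5.59. For Tial1 P/J and I/LnJ, at 10.02 and 10.04, lay below all 3 strains. For 9130023H24Rik I/LnJ, at 4.22, lay among the 3 strains, and P/J came next at 4.65. C920006O11Rik and Filip1 were higher, whereas Slc17a5, the lysosomal sialic acid exporter between them, measured 8.04 in 129S1/SvImJ, 8.04 in LP/J and 8.39 in BTBR, against a median of 9.17 (8.27 to 9.36) in the 27 strains (difference -0.95, SE 0.149; limma adjusted p = 0.000400). Psg16 and Npas1, a transcription factor of certain inhibitory neurons, were higher, and Dact3, an inhibitor of Wnt signalling, was lower. Ctnnd2, a catenin of dendrites and synapses, fell by 0.28 beside Atpsckmt and Cpq. Several calls were lost when only a pair of the 3 strains was left, while the differences kept their sign. Without 129S1/SvImJ, Ctnnd2 differed by -0.23 (limma adjusted p = 0.477), Npas1 by 0.60 (0.242), Dact3 by -0.36 (0.561), 9130023H24Rik by -0.84 (0.142), Tial1 by -0.87 (0.0974) and Itgam by -0.71 (0.426). Without LP/J, Ctnnd2 differed by -0.27 (limma adjusted p = 0.295), Npas1 by 0.71 (0.0844), Dact3 by -0.48 (0.281), 9130023H24Rik by -0.69 (0.308) and Tial1 by -0.85 (0.113). Without BTBR, Npas1 differed by 0.47 (limma adjusted p = 0.251).

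Nup133 and Abcb10 are direct neighbours among the tested genes, and they lie on the same chromosome as Disc1, 16 and 15 tested genes before it. This window was examined after the values were seen. Of the 20 tested genes before Disc1 these 2 were called, and of the 15 after it, up to the end of the chromosome, 0 were, against 0.782% of all genes. Tsnax, the nearest tested gene, whose product binds translin, differed by -0.02 (SE 0.200; limma adjusted p = 0.994). Nup133, a scaffold protein of the nuclear pore, moved opposite to Abcb10: it measured 9.56 in 129S1/SvImJ, 9.36 in LP/J and 9.43 in BTBR, against a median of 8.86 (8.44 to 9.30) in the 27 strains. The difference was 0.58 (SE 0.102; limma adjusted p = 0.00167). The Swiss-derived strains FVB/NJ, SJL/J and SWR/J had 8.88, 8.99 and 9.06 for Abcb10 and 8.52, 8.96 and 9.00 for Nup133. They are among the 27 against which both genes were called, and that selection favours levels away from the 3 strains. It does not fix the level of any single strain, since P/J, also among the 27, was as low as the 3 for Abcb10. The Disc1 deletion as a cause was not tested.

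The promoter windows of these neighbours are shown because both genes changed in the same strains and in opposite directions. Both come from the C57BL/6J reference (RefSeq, GRCm38.p6), run from 250 bases before to 50 after the start of the gene, and are written 5′ to 3′ on the strand of the gene, and no variant of the 3 strains was analysed. Capitals mark the GC box GGGCGG, searched on both strands, which appears here as CCGCCC. The window of Abcb10 lies at chr8:123983073-123983372 on the minus strand and that of Nup133 at chr8:123949216-123949515 on the minus strand.
Abcb10: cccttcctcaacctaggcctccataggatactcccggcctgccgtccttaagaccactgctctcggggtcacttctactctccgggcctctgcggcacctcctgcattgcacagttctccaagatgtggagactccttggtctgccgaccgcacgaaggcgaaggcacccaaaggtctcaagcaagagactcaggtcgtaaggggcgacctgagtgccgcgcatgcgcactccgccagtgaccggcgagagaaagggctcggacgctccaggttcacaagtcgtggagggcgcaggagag
Nup133: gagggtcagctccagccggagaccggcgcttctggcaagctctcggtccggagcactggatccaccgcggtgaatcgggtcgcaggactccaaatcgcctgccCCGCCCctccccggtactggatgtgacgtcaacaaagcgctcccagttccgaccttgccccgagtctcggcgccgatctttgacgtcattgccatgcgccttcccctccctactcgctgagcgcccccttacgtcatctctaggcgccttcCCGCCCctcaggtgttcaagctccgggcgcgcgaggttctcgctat

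The Nup133 window holds 2 GC boxes and the Abcb10 window 0, while 35.7% of 32851 promoter windows of the same length hold at least 1. Neither holds TATAAA on either strand, which 13.6% of the windows do. The share of G and C was 65.3% for Nup133 and 62% for Abcb10.

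Of the genes tied to known variants of these strains, Ednrb was low in LP/J and I/LnJ, named above for the piebald allele, and not in all of the 3. Genotypes were not measured here, and whether the allele sets the level was not tested. Ednrb measured 8.22 in LP/J, against 10.63 in 129S1/SvImJ and 10.53 in BTBR, and the 27 strains had a median of 10.60, with I/LnJ lowest at 7.85. The group difference was -0.69 (limma adjusted p = 0.598; exact permutation test over all 4060 choices of 3 arrays, two-sided p = 0.138, smallest possible 0.000246), and it was 0.09 without LP/J. On all 3 Ednrb probe sets LP/J and I/LnJ lay below the other 28 strains, on water and fluoxetine arrays alike. On the probe set used, LP/J measured 8.22 and 8.14 and I/LnJ 7.85 and 8.60 on water and fluoxetine, against 10.28 to 11.16 over the other 28. Itpr3 was below the filter on low values, with 3.30, 3.25 and 3.26 in 129S1/SvImJ, LP/J and BTBR, against a median of 3.26 in the 27 strains. Draxin, a guidance molecule of callosal axons, lay at the floor of the scale in every group and could not be resolved.

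None of the 26 measured binding partners of Disc1 was called, against 0.782% of all genes. Of the partners 10 were higher and 16 lower. None had an unadjusted p under 0.05 in limma, which 1113 of all 11887 genes had. Their median difference was -0.01, against 0.00 over all genes. The kinase gene Tnik had the smallest p. It measured 11.22 in 129S1/SvImJ, 11.36 in LP/J and 11.53 in BTBR, against a median of 11.57 (11.22 to 11.96) in the 27 strains, a difference of -0.23 (SE 0.114; limma adjusted p = 0.550). Nde1 and Ndel1, regulators of the dynein motor at the centrosome, differed by -0.19 and -0.05 on the probe sets used, and Pafah1b1, the lissencephaly gene that works with them, by -0.11. Among centrosome proteins, Pcm1 differed by -0.14, Pcnt by 0.09, Akap9 by 0.01 and the ciliary protein Bbs4 by 0.10. The kinesin partner Kif5a differed by -0.03, and Trak1 and Rhot1, which attach mitochondria to kinesin, by -0.01 and -0.11. Fez1, an adaptor of axon growth, and Dpysl2, a tubulin-binding protein of growing axons, differed by -0.01 and -0.02. Of the signalling partners, Gsk3b differed by 0.10, Pde4b by 0.02, Pde4d by -0.01, Kalrn by 0.02, Rac1 by 0.02 and Dixdc1 by -0.02. Cit, Ccdc88a, Atf4, Immt, Map1a and Ywhae lay between -0.19 and 0.15.

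These values come from 1 probe set per gene. With every passing probe set tested, 0 of the 81 probe sets of the 26 partners were called on water arrays, against 0.818% of all 21640 probe sets. Another probe set passed the filter for 24 of the partners, 55 probe sets in all, and 5 of these had an unadjusted p under 0.05 in limma. These 5 belonged to Pafah1b1 (difference 0.58), Pde4d (0.49), Pcm1 (0.38), Trak1 (-0.30) and Kalrn (-0.20). By gene, with 1 probe set each, 1113 of all 11887 had such a p. The largest difference of the 55 was on a second probe set of Ndel1, which lay near the floor, at 2.09, in 129S1/SvImJ, LP/J and BTBR alike. Among the 27 strains 13 also lay near the floor, the median was 2.68 and the highest 6.76. The difference of -2.00 had an SE of 1.19 (limma adjusted p = 0.641), and under fluoxetine it was -2.04 (limma adjusted p = 0.758). Its size is set by the floor, and the 3 strains were not distinguished from the 13 others there.

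Outside these genes, lists for transmitter systems, synapses, metabolism, immunity and cell types were read for how many members were called. Over all lists, 2 of 436 genes tested (0.459%) were called, against 0.782% of all genes: Itgam, in the microglia list, and Cdhr1, in the olfactory bulb list. Of 27 measured genes of callosal projection and midline formation 0 were called, against 0.782% of all genes, with 10 higher, 17 lower and a median of -0.01. An unadjusted p under 0.05 in limma was reached by 3 of the 27, and by 1113 of all 11887 genes. The comparison averages BTBR with 129S1/SvImJ and LP/J, so it does not show whether these callosal genes differ in BTBR alone. Of 11 measured genes of the serotonin system, on which fluoxetine acts, 0 were called; 7 were higher and none had an unadjusted p under 0.05. The receptor gene Htr1f, named here after its values were seen, had the largest difference in that list, with 6.64 in 129S1/SvImJ, 6.64 in LP/J and 5.35 in BTBR, but the 27 strains spread from 2.13 to 7.51 (difference 1.42, SE 1.004; limma adjusted p = 0.733).

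Itgam, the integrin chain CD11b of microglia, measured 4.65 in 129S1/SvImJ, 5.73 in LP/J and 5.34 in BTBR, against a median of 6.30 (5.20 to 6.77) in the 27 strains, and 129S1/SvImJ alone lay below their range. The difference was -1.0004 (SE 0.220; limma adjusted p = 0.0177), -0.71 without 129S1/SvImJ (limma adjusted p = 0.426) and -1.21 under fluoxetine. Of the 11 measured microglia markers, 10 had a lower mean in the 3 strains and 1 was called, with a median difference of -0.24. Aif1, the calcium-binding protein Iba1, came next at -0.74 (limma adjusted p = 0.174), then the complement gene C1qa at -0.49 (0.334) and the adaptor gene Tyrobp at -0.36 (0.502). Of the markers named here after their values were seen, the receptor genes Csf1r and Cx3cr1 differed by -0.05 and -0.21, and C1qb by 0.04. The summed intensity of the list was 6888 to 7255 in the 3 strains and 6042 to 9892, with a median of 8309, in the 27. In pooled tissue, fewer cells of a type and less RNA per cell cannot be told apart.

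Other cell type lists held few or no calls. The median was -0.19 for 11 endothelial genes, of which 9 were lower, and -0.13 for 12 astrocyte genes, of which 9 were lower. Of 9 deep-layer neuron genes 8 were higher, with a median of 0.18, and the 7 upper-layer genes had a median of -0.02. The intensities of the astrocyte list summed to 78000 to 79700 in the 3 strains and 73700 to 86570 in the 27, and those of the oligodendrocyte list to 38710 to 55550 in the 3 strains and 35190 to 58400 in the 27. With scores of 5 cell type lists as covariates, 28 genes were called, 26 of them among the 93. The difference kept its sign for all 92 of the 93 genes that could be compared, and the median size was 0.643 with the scores and 0.641 without, while the standard errors were 1.28 times as large. With the microglia score alone 53 genes were called, and with the astrocyte score alone 54. What part cell composition has in the differences was not tested beyond these fits. For Cdhr1, the olfactory bulb genes Tbx21, Eomes, Sp8 and Th were below the filter. The list, which includes Cdhr1, summed to 1381 to 1532 in the 3 strains and 635.5 to 4996, with a median of 1097, in the 27. Of its 5 tested members 3 were higher and 2 lower. An unadjusted p under 0.05 in limma was reached by 3 of the 5, and by 1113 of all 11887 genes.

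**Figure D4:**
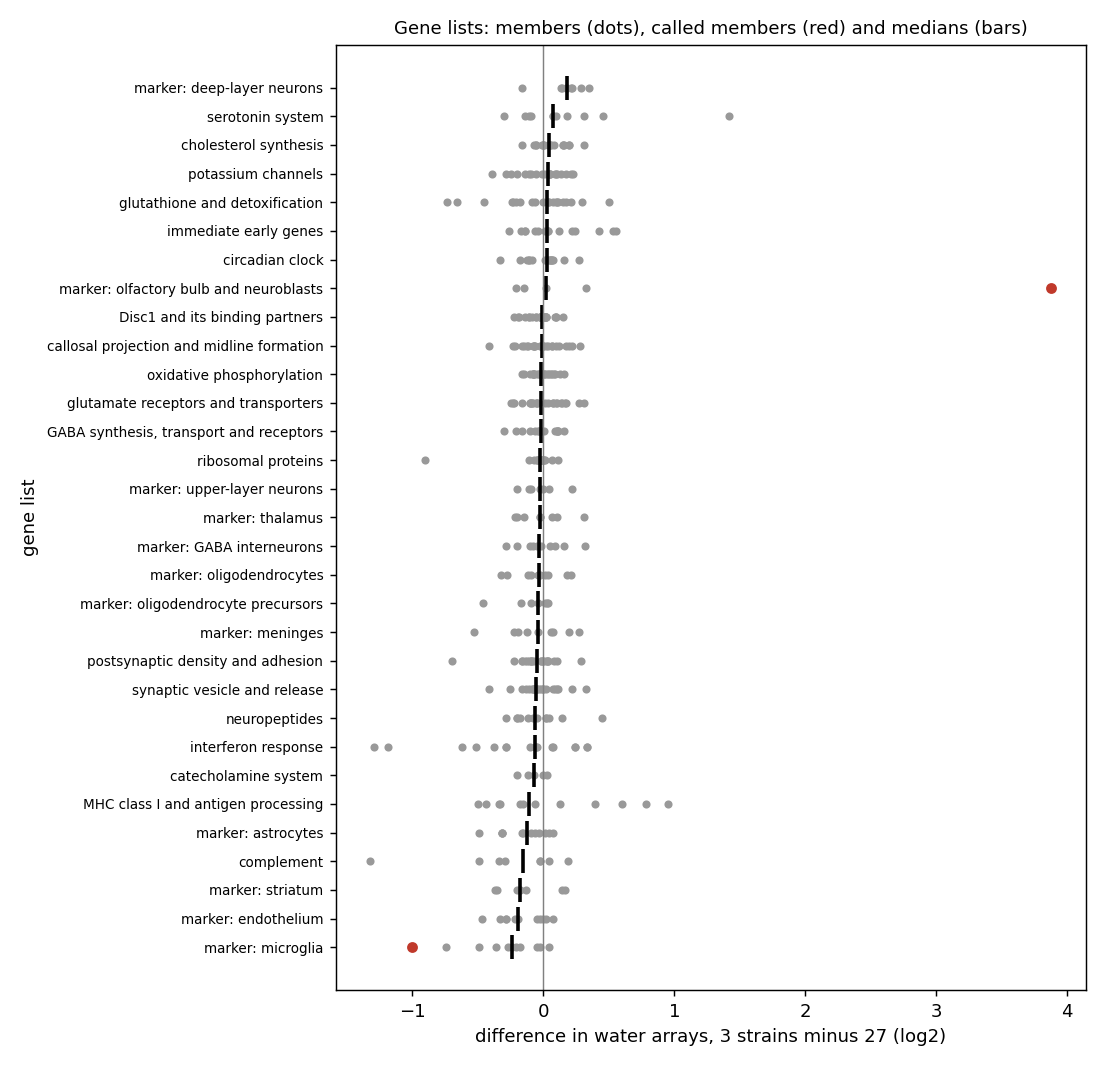
Difference between the 3 strains and the 27 on the water arrays (horizontal axis, log2) for the members of each gene list with at least 5 tested members (rows); grey dots are single genes, red dots called genes and black bars list medians. The red dots are Itgam, at -1.0004 in the microglia list, and Cdhr1, at 3.88 in the olfactory bulb list, and list medians lie between -0.24 and 0.18.

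Where a called gene had more than 1 probe set, the probe sets could be set against each other. A second passing probe set was present for 43 of the 93 genes, 73 probe sets in all, of which 59 had the same sign as the one used. For 28 of the 43 genes at least 1 other probe set had a difference of at least 0.5 times the size in the same direction, and for 15 none did. The disagreement was plain in Tial1, an RNA-binding protein of stress granules and splicing: the probe set used gave -0.89, another -4.25 and the remaining 3 between -0.14 and -0.27. Esco1, an acetyltransferase of cohesin that is named here after its values were seen, gave -1.11 on the probe set used and 0.67 on its other one. The other 50 called genes had no second passing probe set. Whether strain differences in the sequence under a probe, rather than in the amount of a transcript, contribute to such values was not tested.

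The 3 strains also differed among themselves, which was measured in a limma fit over all 60 arrays with both arrays of a strain as its values. BTBR and 129S1/SvImJ differed in 3897 genes (32.8%), BTBR and LP/J in 1855 (15.6%) and 129S1/SvImJ and LP/J in 1658 (13.9%). Over all 435 pairs of the 30 strains the median was 2010 (356 to 5688), and counting from the fewest calls BTBR with 129S1/SvImJ ranked 409, BTBR with LP/J 179 and 129S1/SvImJ with LP/J 127. With each array centred on its median the counts were 3050 for BTBR and 129S1/SvImJ (rank 385), 1698 for BTBR and LP/J (rank 142) and 1439 for 129S1/SvImJ and LP/J (rank 74). The direction of these calls depended on the centring. BTBR was higher than 129S1/SvImJ in 2864 genes and lower in 1033 as deposited, but higher in 1374 and lower in 1676 after centring. The corresponding split of BTBR against LP/J was 1217 and 638 as deposited and 766 and 932 after centring, and that of 129S1/SvImJ against LP/J was 636 and 1022, then 807 and 632. The median of all genes was shifted by 0.109 between BTBR and 129S1/SvImJ on the deposited scale, by 0.05 between BTBR and LP/J and by -0.05 between 129S1/SvImJ and LP/J. Of the 93 genes, 36 differed between BTBR and 129S1/SvImJ, 33 between BTBR and LP/J and 20 between 129S1/SvImJ and LP/J, so not all of them were at 1 common level in the 3 strains. These p-values reflect the spread between 2 pools of a strain. With only the 6 arrays of the 3 strains in the fit, 1898 genes were called for BTBR against 129S1/SvImJ, 294 for BTBR against LP/J and 76 for 129S1/SvImJ against LP/J.

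**Figure D5:**
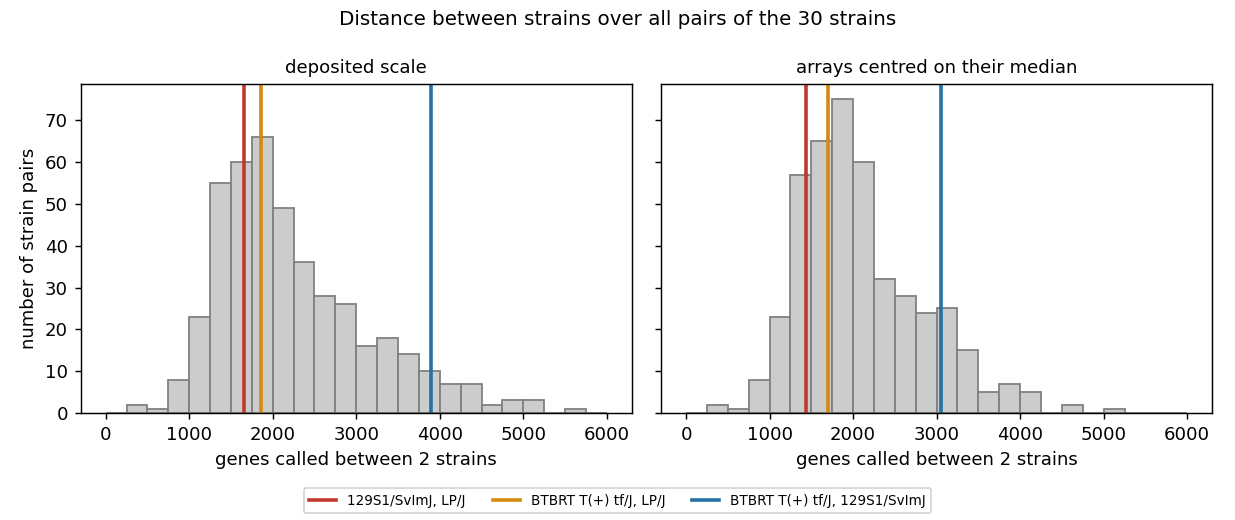
Number of genes called between 2 strains (horizontal axis) against the number of the 435 strain pairs (vertical axis, grey bars), on the deposited scale (left) and with arrays centred on their median (right); coloured lines mark the 3 pairs among 129S1/SvImJ, LP/J and BTBRT T(+) tf/J. The pairs that include LP/J lie at 1658 and 1855 on the deposited scale, below the median pair at 2010, and BTBRT T(+) tf/J against 129S1/SvImJ lies at 3897.

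The largest differences within the group often put 1 strain at or near the floor. Gdpd3, a lysophospholipase, lay at the floor of 2.07 in BTBR on both arrays, against 8.37 on water and 8.49 under fluoxetine in LP/J and 7.995 and 8.03 in 129S1/SvImJ, and the difference of -6.35 from LP/J is therefore set by the floor. Zfp945, a zinc finger gene, measured 8.67 on water and 8.46 under fluoxetine in BTBR, against 2.96 and 2.07 in LP/J and 3.14 and 2.15 in 129S1/SvImJ. Cthrc1, a secreted protein linked to Wnt signalling, measured 9.37 and 9.24 in BTBR, against 2.86 and 3.74 in LP/J and 3.74 and 4.35 in 129S1/SvImJ. Each of these 3 genes thus set BTBR apart from both other strains on both arrays.

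Chchd4, an import factor of the mitochondrial intermembrane space, differed by -5.20 in BTBR against LP/J (SE 0.371; limma adjusted p = 1.32e-12), and Stbd1, a glycogen-binding protein, by -4.84 (SE 0.212; limma adjusted p = 4.28e-18). Stbd1 measured 2.59 and 2.65 in BTBR, near the floor, so the size of its difference is set in part by the floor. Mid1, a ubiquitin ligase of microtubules, was higher in BTBR by 5.02 (SE 0.366; limma adjusted p = 2.25e-12) against LP/J, where it lay near the floor. The protocadherin gene Pcdhb9, one of a family of close copies that probes may not separate, was higher in BTBR than in LP/J by 5.05, and 2900052N01Rik differed by -4.53.

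Other genes set 129S1/SvImJ or LP/J apart. Gm5113 measured 2.09 on water and 2.10 under fluoxetine in 129S1/SvImJ, against 7.31 and 7.19 in LP/J, and in BTBR it was near the LP/J level, at 7.15 and 7.17. Adat2, an enzyme that edits transfer RNA, measured 8.45 and 8.30 in 129S1/SvImJ, against 3.70 and 3.71 in LP/J, and BTBR had 4.11 and 3.97. Psmd6, a subunit of the proteasome, measured 12.68 and 12.72 in 129S1/SvImJ and 9.01 and 9.11 in LP/J (difference 3.64, SE 0.479; limma adjusted p = 2.02e-06), and the acetyltransferase-like gene Nat8f4 was higher in 129S1/SvImJ by 3.94. Mpeg1, a pore-forming protein of macrophages and microglia, measured 6.20 and 5.66 in 129S1/SvImJ and 8.88 and 9.00 in LP/J. The ubiquitin ligase adaptor Klhl42 and the lipid anchor enzyme Pigz differed by -3.01 and -2.70 in 129S1/SvImJ against LP/J.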

How the data were processed

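Cortical RNA of 30 strains was measured on 60 Affymetrix arrays, 1 per strain and treatment, each a pool of 3 mice. The values deposited by the authors are linear intensities per probe set, which the authors obtained with GCRMA, per the submitters' processing notes. GCRMA adjusts each probe for its sequence-dependent background, makes the arrays' distributions equal and combines the probes of a set. Its version and any scan batch are not given in the sources used here. The number of arrays limits the precision. The deposited intensities (4.21 to 72333.5) were set on the log2 scale without a pseudocount.

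The platform annotation names 1 gene for 34958 of 45101 probe sets, several for 932 and none for 9211. For each of 18194 genes (18033 of them in the RefSeq table) the brightest probe set over the 60 arrays was taken. The 11887 genes with log2 of at least 4 in at least 6 arrays of any group were tested. limma 3.58.1 (lmFit and eBayes, R 4.3.3, two-sided, Benjamini-Hochberg at 0.05) compared 3 with 27 water arrays, the same on fluoxetine arrays, their difference within strains, and pairs of strains. The procedure was tested on simulated data with independent normal values and large added shifts. That setting has no related strains and no floor, so it does not show how the procedure performs on these arrays.

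The strains were chosen by name and not by a measured value. Earlier results of these data were known when the strains and the gene lists were chosen. Named were the 12 genes with the largest difference in each direction among those called, the measured Disc1 partners and known variants, called members of other lists with at most the 4 of smallest p, the 4 largest in each direction per strain pair, and groups of at least 3 called neighbours. Others are stated as named after their values were seen.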

Additional observations from a re-analysis of the deposited data

How the results depend on the processing

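The limits are few strains and shared descent: 3 related strains stand on one side, each with 1 array per treatment, and low values pile up at the floor of the scale. The water count of 93 became 177 with every probe set tested on its own, 28 with 5 cell type scores as covariates, 54 with the astrocyte score alone and 53 with the microglia score alone (single scores were tried after seeing the data). It ranged from 45 to 146 when one of the 3 strains was left out, and from 81 to 107 when one of the 27 was. Without a filter on low values 109 genes were called, 55 higher and 54 lower, against 35 and 58 with it; with centred arrays 109 were called, 38 higher and 71 lower. The fluoxetine count of 73 became 119 with every probe set, 111 with the mean of both arrays of a strain, 36 with the 5 scores, 35 with the astrocyte score and 47 with the microglia score, and it ranged from 32 to 75 without one of the 3 strains and from 61 to 74 without one of the 27. The strain pair counts became 76 for 129S1/SvImJ against LP/J, 1898 for BTBR against 129S1/SvImJ and 294 for BTBR against LP/J with only 6 arrays in the fit, which leaves fewer arrays to estimate the spread. Without FVB/NJ, SJL/J and SWR/J 76 genes were called on water arrays and 54 on fluoxetine arrays. Of 32 named genes checked, 27 kept their side of the threshold without these strains, 25 on fluoxetine arrays, 31 with centred arrays and 30 with the mean of all probe sets. Only 16 did without 129S1/SvImJ and 17 without LP/J, where 14 lost their call and 1 reversed, against 27 without BTBR. The difference of Ednrb, -0.69 in all, ranged from -1.115 to 0.0934 without one of the 3 strains, and was positive without LP/J, the strain with the low value. What caused the changes between settings was not tested. No paired analysis was possible because the 3 strains and the 27 share no strain and the labels carry no replicate numbers, and the strain label, which pairs water with fluoxetine arrays, served for the fluoxetine minus water differences.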
